A study of Saccharomyces cerevisiae with 4 samples.

Results

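The 46 genes described here encode nucleolar proteins that build the ribosome in the budding yeast Saccharomyces cerevisiae. They were taken by ORF name, as the UTP, NOP and NOC genes and RRP1, RRP5, RRP7, RRP8, RRP9 and RRP12, together with NSR1, DIP2, PWP2, IMP3, IMP4 and MPP10, out of 6301 ORFs on the array. The rule uses names and no measured value, although the members were chosen with earlier results of these data known. By their textbook role 29 act on the small ribosomal subunit, 12 on the large subunit, and 5 on both. The study compared S288c cells moved for 12 h to minimal medium, which held 0.025% ammonium sulfate and neither amino acids nor adenine, with cells in nitrogen-rich synthetic complete medium, in which both had been grown at 30 °C to an OD600 of 0.4. RNA was reverse transcribed with multi-targeted primers (MTP, short primers chosen to anneal to many transcripts) together with oligo-dT and hybridized to 4 two-color arrays. Each array gave a ratio of the media, so that no level of a gene in either medium alone was analysed here.

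The pathway starts in the nucleolus, where RNA polymerase I makes a long precursor of the ribosomal RNAs. The small-subunit processome, a large particle built on the nascent precursor around the U3 snoRNA, folds and cuts the part that becomes the small subunit. It forms from blocks called UTP-A, UTP-B, UTP-C, the Mpp10 complex and the U3 snoRNP. Other factors, among them the Noc2 and Noc3 proteins and the Nop7 complex, assemble the large subunit. In yeast these genes form a large co-regulated set that is tied to growth rate and nutrient supply through TOR signaling and the activator Sfp1.

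The arrays are named by their titles, which put minimal medium in Cy5 on 2 of them (replicates 1 and 2) and synthetic medium in Cy5 on the other 2 (replicates 1 and 2). All values below are log2 ratios of minimal over synthetic medium, and a gene's 4 values are given in the order minimal medium in Cy5 replicate 1 and replicate 2, then synthetic medium in Cy5 replicate 1 and replicate 2. A value below 0 means less of the transcript in minimal medium relative to the mean of the array, and a change in total RNA per cell cannot be seen on this scale. The replicates were separate reverse transcriptions, and nothing says how many cultures lay behind them, so p-values measure the spread between arrays only. Array medians over all ORFs lay between -0.03 and 0.11, and between 5548 and 5992 ORFs per array carried a value. Of the 46 members 40 had values on all 4 arrays, 5 on 3 arrays, and IMP4 on 2. ORFs with at least 3 values were tested with limma, and a gene was called at an adjusted p at or under 0.05 after Benjamini-Hochberg adjustment over the 5956 ORFs tested.

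Most of the ribosome biogenesis genes were lower in minimal medium. Of the 45 members tested, 28 were called lower (62.2%), 2 were called higher (4.44%) and 15 were not called. Over all ORFs tested, 31.5% were called lower and 33.8% higher. The median member ratio was -0.44, against 0.03 over all ORFs, and the quartiles of the members lay at -0.68 and -0.13, against -0.30 and 0.33 for all ORFs. On single arrays the member median was -0.42, -0.54, -0.44 and -0.29. A value below 0 was found for 38 of 44, 36 of 46, 39 of 44 and 35 of 43 members measured on those arrays. Among all ORFs tested, values below 0 were 3069 of 5807, 3135 of 5922, 2687 of 5890 and 2261 of 5480. In size, 16 of the 45 members tested were down at least 1.5-fold and 5 at least 2-fold. Of all 5956 ORFs tested, 700 were down at least 1.5-fold and 284 at least 2-fold. The study's threshold was an unadjusted P for the observed direction at or under 0.05, which it took from a Bayesian method. With P from limma in its place, 35 of the 45 members tested were lower, against 2142 of the 5956 ORFs (36%). Higher were 4 of the 45 members, against 2337 of the 5956 ORFs (39.2%).

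**Figure D1:**
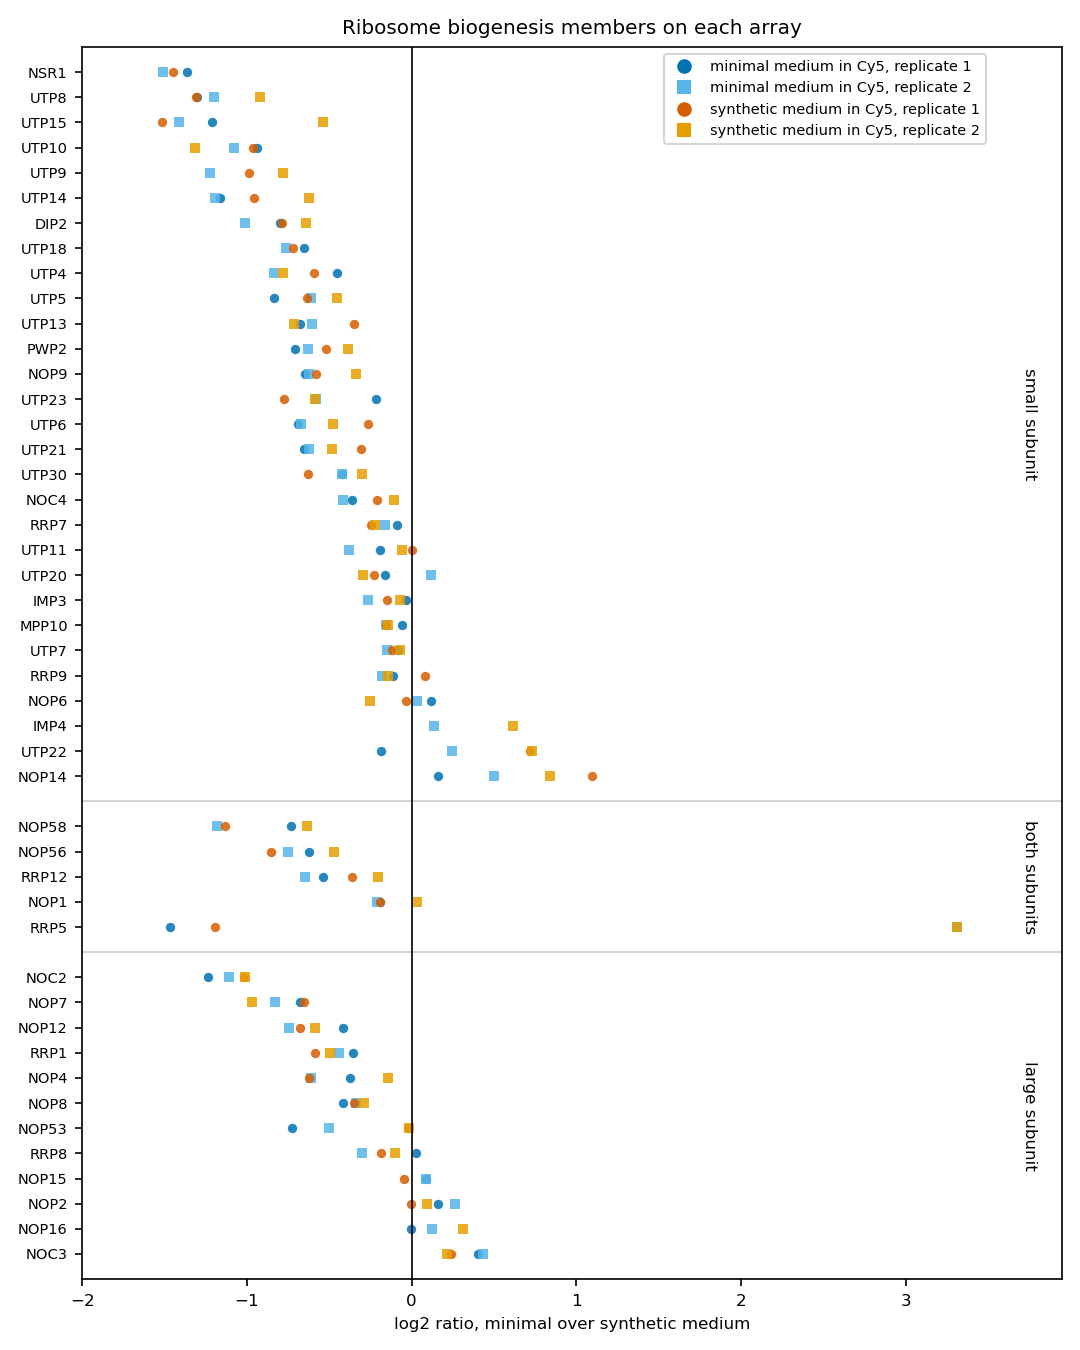
The log2 ratio of minimal over synthetic medium (horizontal axis) is plotted for each of the 46 members on each array, with members ordered by mean within the small-subunit, both-subunit and large-subunit classes. Most points lie left of 0, and RRP5 has its replicate 1 arrays (circles) at -1.47 and -1.19 and its replicate 2 arrays (squares) at 3.31 and 3.31.

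The lowest ratios among the members were those of the small-subunit factors NSR1, UTP8 and UTP15, followed by the large-subunit factor NOC2 at -1.09. NSR1 (YGR159C), the yeast relative of nucleolin, was lowest of all members at -1.37, -1.51 and -1.45, with no value on the last array. Its mean was -1.44 ± 0.07 (SD, n = 3), a 2.71-fold decrease (limma adjusted p = 1.92e-05), and it ranked 141 from the lowest among all ORFs tested. Its 3 values lay within 0.142 of each other. In all, 19 of 28 small-subunit members tested were called lower (67.9%), 1 higher (3.57%) and 8 neither, with a median of -0.53. The shares over all ORFs were 31.5% lower and 33.8% higher.

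Within the processome the UTP-A block, whose subunits bind the start of the precursor and are also needed for its transcription, stood lowest. All 6 UTP-A members were called lower, with a median of -1.04. UTP8 (YGR128C) had -1.30, -1.20, -1.31 and -0.92, with a mean of -1.18 ± 0.18 (SD, n = 4). UTP15 (YMR093W) had -1.21, -1.41, -1.52 and -0.54. The last array was thus well above the other 3 for UTP15, and its mean was -1.17 ± 0.44. Means of the other UTP-A members were -1.07 for UTP10 (YJL109C), -0.997 for UTP9 (YHR196W), -0.67 for UTP4 (YDR324C) and -0.63 for UTP5 (YDR398W). No UTP-A value on any array was above -0.45.

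UTP-B, the block that follows UTP-A on the precursor, was called lower in all 6 of its members as well, at a median of -0.57. Its means covered a narrow range, with DIP2 (YLR129W, also known as UTP12) at -0.81 and UTP18 (YJL069C) at -0.71. UTP13 (YLR222C), PWP2 (YCR057C), UTP6 (YDR449C) and UTP21 (YLR409C) lay at -0.59, -0.56, -0.52 and -0.52. Thus all 12 members of the blocks UTP-A and UTP-B were lower, and neither had a member above 0 on any array.

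The other blocks of the processome did not move together. In the Mpp10 complex, which joins the U3 snoRNA to the precursor, neither tested member was called. IMP3 (YHR148W) had -0.04, -0.26, -0.15 and -0.07, and MPP10 (YJR002W) had -0.06, -0.15, -0.16 and -0.14. MPP10 was called lower with a dye term (adjusted p = 0.0439) and in a fit that did not share variances among ORFs (adjusted p = 0.0283). IMP4 (YNL075W), their partner, was measured only on the replicate 2 arrays, at 0.14 and 0.62, and was not tested. RRP9 (YPR137W), the U3-specific protein, had -0.11, -0.18, 0.08 and -0.15 and was not called. The means of IMP3, MPP10 and RRP9 were -0.13, -0.13 and -0.09, against -0.52 for UTP21, the member of UTP-A and UTP-B nearest to 0.

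In UTP-C the pair RRP7 and UTP22 lay on either side of 0. RRP7 (YCL031C) had -0.09, -0.16, -0.25 and -0.22 and was called lower at a mean of -0.18 (adjusted p = 0.0275). The call of RRP7 was lost when any array but the first was left out. UTP22 (YGR090W), which also binds the ribosomal protein gene regulator Ifh1, had -0.18, 0.24, 0.72 and 0.73. Its mean of 0.38 was not called (adjusted p = 0.0694), and without the first array it was called higher at 0.57. The synthetic-Cy5 arrays gave higher values for UTP22 than the minimal-Cy5 arrays did, with no overlap. The difference between orientations was not called for UTP22 (limma adjusted p = 0.131).

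NOP14 and NOC4, whose proteins bind each other in small-subunit assembly, moved in opposite directions. NOP14 (YDL148C) had 0.16, 0.50, 1.10 and 0.84, above 0 on all arrays, and was called higher at a mean of 0.65 ± 0.41 (SD, n = 4, adjusted p = 0.00731). NOC4 (YPR144C) had -0.36, -0.41, -0.21 and -0.11 and was called lower at -0.27 ± 0.14 (adjusted p = 0.012), a call that was lost without the second array (adjusted p = 0.0637). NOP14 shared with UTP22 the higher values on the synthetic-Cy5 arrays, a difference that was not called for NOP14 either (limma adjusted p = 0.134). In a fit that did not share variances among ORFs, the call of NOP14 was lost at an adjusted p of 0.0837.

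**Figure D2:**
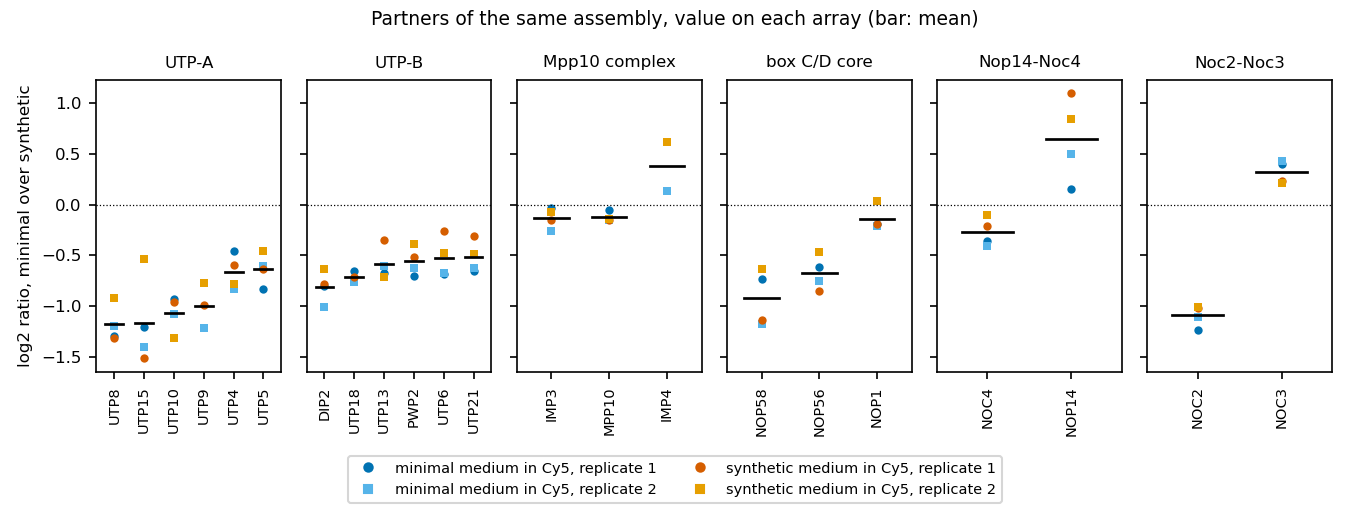
The log2 ratio of minimal over synthetic medium (vertical axis) is plotted on each array for members of 6 assemblies, with a bar at the mean. All 12 members of UTP-A and UTP-B lie below 0, whereas NOP14 and NOC4, and NOC3 and NOC2, lie on opposite sides of it.

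The remaining small-subunit members spanned the range between these groups. UTP14 (YML093W), the activator of an RNA helicase of the processome, was at -0.98. NOP9 (YJL010C), an RNA-binding protein with Pumilio-type repeats, was at -0.55, UTP23 (YOR004W) at -0.54 and UTP30 (YKR060W) at -0.44, and all 4 of these genes were called lower. UTP11 (YKL099C) had -0.19, -0.38, 0.0024 and -0.06, UTP7 (YER082C) had -0.08, -0.15, -0.12 and -0.07, and neither was called. UTP7 had a small value below 0 on every array, with an unadjusted p of 0.0899 and an adjusted p of 0.121, and was called lower where variances were not shared (adjusted p = 0.0255). UTP20 (YBL004W) had -0.16, 0.12, -0.23 and -0.29, and without the second array it was called lower at -0.23. NOP6 (YDL213C), an RNA-binding factor of early assembly, had 0.12, 0.03, -0.03 and -0.25 and a mean of -0.04. The sign of NOP6 was therefore not settled by these arrays.

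Of the 12 large-subunit members 6 were called lower (50%), 1 was called higher (8.33%) and 5 were not called, with a median of -0.33. The shares over all ORFs were 31.5% lower and 33.8% higher. NOC2 (YOR206W), which works in pre-ribosome maturation with NOC3, was lowest at -1.24, -1.11, -1.02 and -1.01, a mean of -1.09 ± 0.11 (SD, n = 4). NOP7 (YGR103W), a scaffold of the complex with Erb1 and Ytm1, had -0.68, -0.83, -0.66 and -0.97. Both stayed below -0.65 on every array. NOP12 (YOL041C) was at -0.61, RRP1 (YDR087C) at -0.47, NOP4 (YPL043W) at -0.44 and NOP8 (YOL144W) at -0.35, and these 4 were also called lower.

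A partner of NOC2 went the other way. NOC3 (YLR002C), which in yeast also has a role in the initiation of DNA replication, had 0.40, 0.43, 0.24 and 0.21 and was called higher at a mean of 0.32 ± 0.11 (SD, n = 4, adjusted p = 0.00405), or 1.25-fold. NOC3 and NOC2 did not overlap on any array. MAK21 (YDR060W, also known as NOC1), a large-subunit factor outside the members, was called lower like NOC2. Its values were -0.84, -1.13 and -0.74, with none on the last array, at a mean of -0.90.

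The large-subunit members that were not called lay mostly near 0. NOP2 (YNL061W), a methyltransferase of the large ribosomal RNA, had 0.16, 0.27, -0.01 and 0.09. NOP16 (YER002W) had -0.0047, 0.12 and 0.31, with no value on the third array, and NOP15 (YNL110C) had 0.09, 0.09 and -0.05, with none on the last. Their means were 0.13, 0.14 and 0.04, and none of these 3 genes was called. RRP8 (YDR083W), another methyltransferase of the same RNA, had 0.03, -0.30, -0.18 and -0.10. NOP53 (YPL146C), which recruits the exosome helicase Mtr4, had -0.73, -0.50, -0.02 and -0.02 at a mean of -0.32 (adjusted p = 0.0677). The minimal-Cy5 arrays of NOP53 were both low while the synthetic-Cy5 arrays were near 0, and without the last array NOP53 was called lower at -0.42.

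Set against each other, small-subunit members were lower than large-subunit members by 0.20 in the medians, -0.53 against -0.33. The difference of class medians was -0.09, -0.21, -0.09 and -0.20 on the 4 arrays, so that the small-subunit median was the lower one on each. With means in place of medians the difference was -0.19, and with the members of both classes counted as small or as large it was -0.19 and -0.18. Among the 40 members with 4 values it was -0.13. The classes overlapped widely, with quartiles of the small-subunit members at -0.74 and -0.14 and of the large-subunit members at -0.50 and 0.06. Members are not replicates, so no test was made of this difference. Within the small class the block medians ran from -1.04 in UTP-A to 0.19 in the pair NOP14 and NOC4, a wider range than the gap between the classes.

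**Figure D3:**
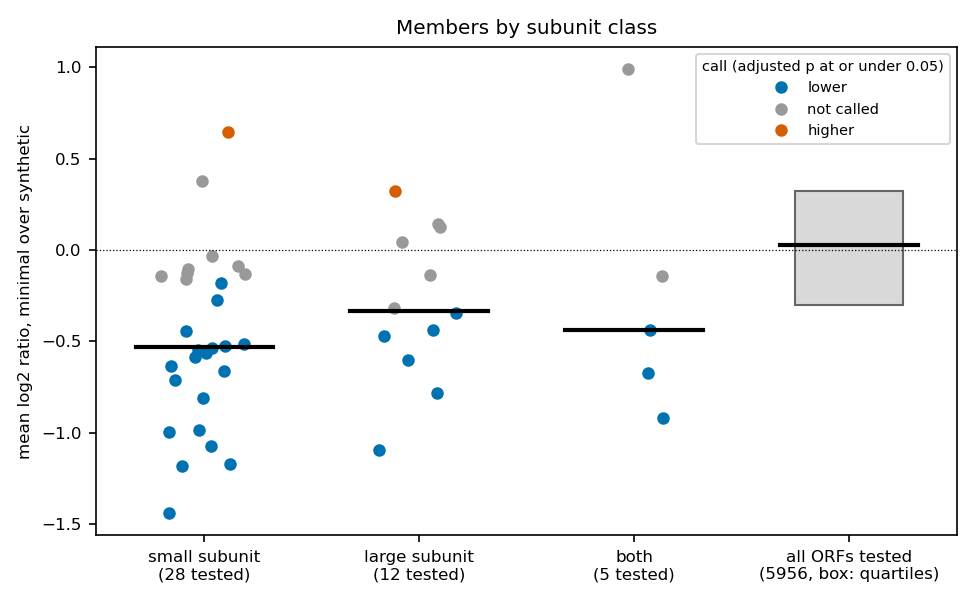
Mean log2 ratios of minimal over synthetic medium (vertical axis) are plotted for members by subunit class, colored by call, with a bar at each median, and for all ORFs tested as a box over the quartiles. The medians are -0.53, -0.33 and -0.44 for the small, large and both classes, against 0.03 for all ORFs, and the classes overlap.

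Among the 5 members that serve both subunits, 3 were called lower (60%) and none higher, with a median of -0.44. The shares over all ORFs were 31.5% lower and 33.8% higher. NOP58, NOP56 and NOP1 are core proteins of box C/D snoRNPs, the particles that guide methylation of ribosomal RNA. NOP58 (YOR310C) had -0.73, -1.18, -1.13 and -0.63 at a mean of -0.92, and NOP56 (YLR197W) had -0.62, -0.75, -0.86 and -0.47 at a mean of -0.68. NOP1 (YDL014W), the methyltransferase known in other organisms as fibrillarin, had -0.19, -0.21, -0.19 and 0.03. The last array stood apart for NOP1, and its mean of -0.14 was not called (adjusted p = 0.0909) but was called without that array, at -0.20. RRP12 (YPL012W), an export factor of both subunits, had -0.54, -0.65, -0.36 and -0.21 and was called lower at -0.44.

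RRP5 (YMR229C), a large RNA-binding protein needed for the cuts that separate the subunits' RNAs, split by replicate number. Its values were -1.47, 3.31, -1.19 and 3.31. The replicate 1 arrays averaged -1.33 and the replicate 2 arrays 3.31, in both dye orientations, and the mean of 0.99 ± 2.68 (SD, n = 4) was not called (adjusted p = 0.362). The difference of 4.64 between replicate numbers was the largest among the 5231 ORFs with 4 values, for which the median difference was 0.0749 in either direction, and the next was 2.52 for SPA2. RRP5 was also the 1 ORF of the 5956 tested (0.0168%) that limma called for a difference between replicate numbers. The gene beside it at its 3' end, MTF1 (YMR228W), which encodes a mitochondrial transcription factor, had 2.78, 2.91 and 2.87 with no value on the last array, and RPS10B (YMR230W), a ribosomal protein gene on the other side, averaged 0.81. Without RRP5 the median of the members was -0.46, and the counts of 28 lower and 2 higher calls were the same.

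**Figure D4:**
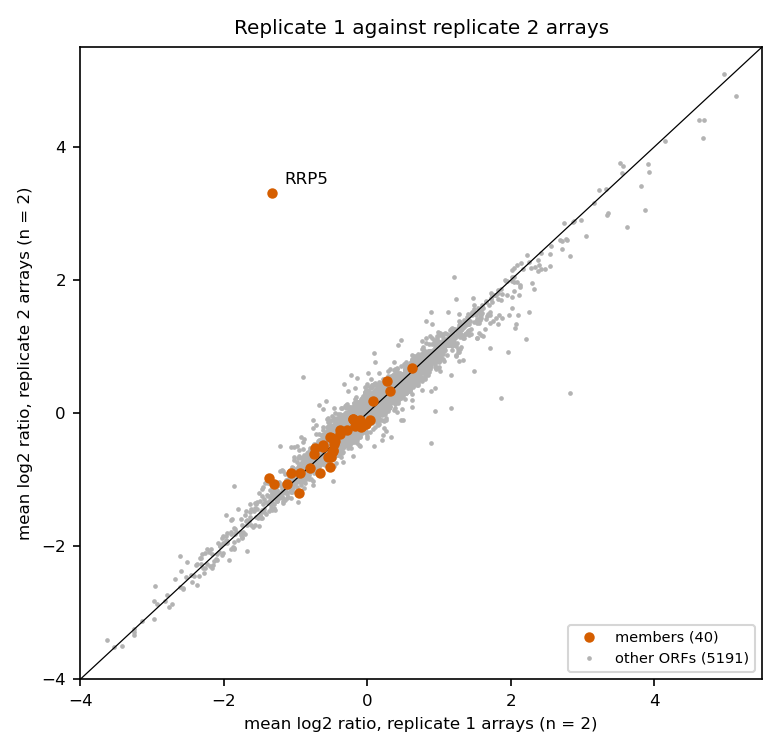
For the 5231 ORFs with 4 values the mean log2 ratio of the replicate 1 arrays (horizontal axis) is plotted against that of the replicate 2 arrays (vertical axis), with 40 members in color and the line of equal values. RRP5 lies at -1.33 and 3.31, far from the line, and the other members lie along it.

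The spread of the members was also set beside that of all genes. The SD among arrays had a median of 0.157 over the 40 members with 4 values, against 0.138 over all ORFs with 4 values. It was under 0.2 for 31 of the 40 members, against 3859 of the 5231 ORFs. Across the 39 members other than RRP5 with 4 values, Pearson's r between pairs of arrays ranged from 0.71 to 0.90. These correlations are across genes, which are not independent replicates, and whether the arrays share RNA extracts is not given.

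A difference between dye orientations was called by limma for none of the 45 members, against 1 of the 5956 ORFs (0.0168%). At an unadjusted p at or under 0.05, 7 of the 45 members differed between orientations, against 1312 of the 5956 ORFs (22.0%). The widest differences, minimal-Cy5 minus synthetic-Cy5 arrays, were -0.70 for UTP22, -0.64 for NOP14 and -0.59 for NOP53. With dye orientation as a term in the fit, 5 more members were called, UTP22 and NOP16 (adjusted p = 0.0495) as higher and NOP53, UTP11 (adjusted p = 0.0357) and MPP10 (adjusted p = 0.0439) as lower, and NOP14 stayed higher. The part of the dyes in the values of these genes was not tested further.

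Other factors of the pathway, listed by role, gave similar counts. Of 43 further small-subunit assembly factors 28 were called lower (65.1%) and 3 higher (6.98%), with a median of -0.35. The shares over all ORFs were 31.5% lower and 33.8% higher. ESF1 (YDR365C), a small-subunit factor, was at -1.90, -2.16, -1.97 and -2.27, below every member, and NAN1 (YPL126W, also known as UTP17), the remaining UTP-A subunit, was at -0.91. The highest were KRE33 (YNL132W), an RNA acetyltransferase, at 0.42 and SOF1 (YLL011W) at 0.33, both called higher. Of 64 further large-subunit factors tested 43 were called lower (67.2%) and 7 higher (10.9%), with a median of -0.39. IPI3 (YNL182C), a partner of Rix1, and NOG2 (YNR053C), a GTPase of late nuclear assembly, were lowest at -1.25 and -1.21, and JIP5 (YPR169W) and TIF6 (YPR016C), which keeps the subunits from joining, were highest at 0.69 and 0.52. In these wider lists the small-subunit median was therefore not below that of the large subunit.

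The H/ACA snoRNP proteins, which act in pseudouridylation, lay on both sides of 0. CBF5 (YLR175W), the pseudouridine synthase, was at -1.05 and NHP2 (YDL208W) at -0.67, both called lower, and GAR1 (YHR089C) was called higher at 0.55 from 3 arrays. Of 13 exosome subunits and cofactors tested, which trim precursors, 7 were lower and 4 higher, with a median of -0.24. The helicase MTR4 (YJL050W) at -0.98 and RRP42 (YDL111C) at -0.47 were lowest, MTR3 (YGR158C) was called higher at 0.41, and RRP46 (YGR095C) at 0.35 was not called. Higher calls made up 30.8% of the exosome list, near the 33.8% of all ORFs, and 4.44% of the members. Lower calls made up 53.8% of the exosome list, against 31.5% of all ORFs and 62.2% of the members.

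**Figure D5:**
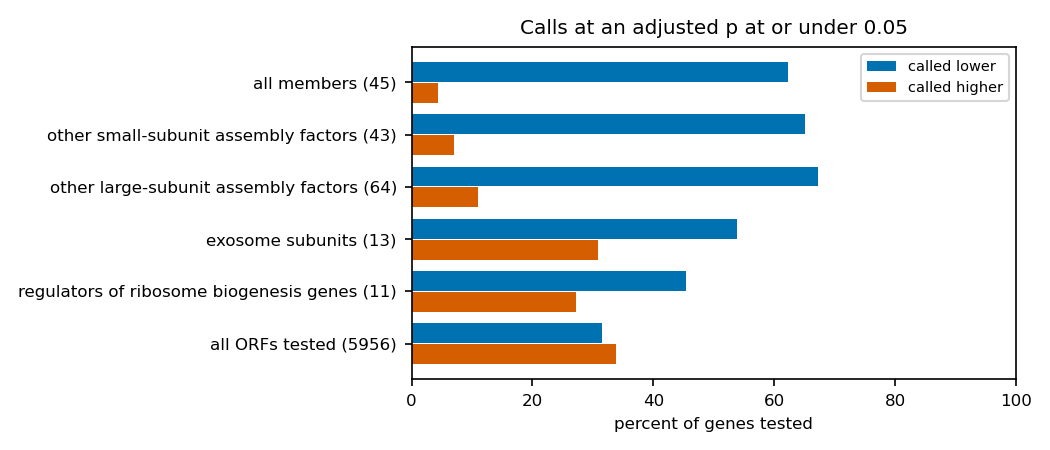
The percent of genes tested that were called lower (upper bar of each pair) and higher (lower bar) in minimal medium is plotted for the members, for other lists of the pathway and for all ORFs tested, with the number tested in parentheses. Calls lower make up 62.2% of the members and 31.5% of all ORFs, and calls higher 4.44% and 33.8%.

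Of 11 genes that regulate this pathway 5 were called lower (45.5%), 3 higher (27.3%) and 3 neither. Over all ORFs tested the shares were 31.5% lower and 33.8% higher. IFH1 (YLR223C), a coactivator of ribosomal protein genes, was at -0.94, -0.94, -0.82 and -0.31. SFP1 (YLR403W), an activator of both ribosomal protein and ribosome biogenesis genes, was at -0.36, and STB3 (YDR169C), which binds a promoter element common in the latter, was also at -0.36. FHL1 (YPR104C), which recruits Ifh1, was at -0.30, and DOT6 (YER088C), a repressor of ribosome biogenesis genes, at -0.21. All 5 were called lower. The repressor TOD6 (YBL054W), a paralog of DOT6, was at -0.12, the kinase SCH9 (YHR205W) at 0.01 and the deacetylase RPD3 (YNL330C) at 0.11, and none of these was called. Higher in minimal medium were MAF1 (YDR005C), the repressor of RNA polymerase III, at 0.73, RAP1 (YNL216W), which binds ribosomal protein gene promoters, at 0.88, and CRF1 (YDR223W), a corepressor of ribosomal protein genes, at 1.12. Each of these 3 lay above 0.65 on all arrays.

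The members lie on 13 chromosomes, and the genes next to them were looked at as well. Of 88 neighbors tested, 35 were called lower (39.8%) and 28 higher (31.8%), with a median of -0.03. Over all ORFs tested 31.5% were called lower and 33.8% higher. Of these, 7 were on the lists above. Among them UTP13 stands between RSA3, a large-subunit factor, at -0.33 and IFH1 at -0.75, and all 3 of these neighboring genes were called lower. UTP9 and NOP56 each had a large-subunit factor beside them that was called lower, RIX1 at -0.56 and PWP1 at -0.56. By contrast MTR3 at 0.41 lies beside NSR1 at -1.44, the lowest member. CMS1 at 0.10, beside NOC3, and RRP15 at -0.11, beside NOC4, were not called.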

How the data were processed

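RNA of S288c, reverse transcribed from purified mRNA by the study's methods, was measured on 4 two-color arrays. The authors subtracted local background, normalized to the mean of the well-measured spots and deposited the log2 value of the ratio; spots not well measured carry none. Titles and channel descriptions disagree on the dye of each medium. The direction, minimal over synthetic medium, was set against the study's supplementary levels (r of 0.964 to 0.983, slopes of 0.98 to 1.04). Names came from the NCBI R64 gene table, which listed 5801 of the 6301 ORFs.

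ORFs with at least 3 values were fitted with limma 3.58.1 in R 4.3.3 (lmFit and eBayes on the mean ratio). Summaries used Python 3.11.15, pandas 2.3.3 and matplotlib 3.10.9. On simulated data of 5956 ORFs the fit recovered 71% of 100 shifts of 0.5 and 93% of 100 shifts of 1, and 4.65% of its calls were false. Only those ORFs were shifted in the simulation, and its noise was independent between arrays. In the data 31.5% of ORFs were called lower and 33.8% higher, so these rates need not hold for the calls made here. The members, classes and lists were chosen with earlier results of these data known. Values on every array are given for the extremes of each class, members not called lower or standing apart, and members of both subunits, and from the other lists the 2 lowest and 2 highest genes and all regulators are named. MAK21 and the listed neighbors of members were named in addition. Alternatives were leaving out each array, centering, scaling, a dye term, a replicate block, other minimums of values, unmoderated variances, the study's threshold and averaging same-numbered arrays.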

Additional observations from a re-analysis of the deposited data

Results flagged for a closer look

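Among the 40 members with 4 values, 2 had 1 array far from the other 3, where chance flags about 5% of groups of this size. For NOP1 the gap of the last array to the nearest other value was 0.935 of the whole range (0.03 against -0.19, -0.21 and -0.19). For MPP10 the first array, at -0.06 against -0.15, -0.16 and -0.14, had a gap of 0.855 of the range, within a range that was itself small.

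RRP5 differed between replicate numbers by a test of the difference itself, with replicate 1 minus replicate 2 arrays at -4.64. Both dye orientations showed it, at -1.47 and 3.31 with minimal medium in Cy5 and at -1.19 and 3.31 with synthetic medium in Cy5. Nothing in the labels separates the replicate numbers, and a cause was not tested.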

How the results depend on the processing

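Of the 45 members tested, 28 kept their direction and their side of the threshold under 13 alternatives. These included 25 of the 28 members called lower (not RRP7, NOC4 and NOP4) and, of the higher calls, NOC3 but not NOP14. The count of higher calls among members was 4 with a dye term and at the study's threshold, 1 with each ORF's own variance and 0 with only the replicate 1 arrays. Among small-subunit members it was 1 or 2 with single arrays left out, 2 after centering, with a dye term, at the study's threshold, after averaging same-numbered arrays and with only the replicate 2 arrays, and 0 with each ORF's own variance and with only the replicate 1 arrays. Among large-subunit members it was 2 with a dye term and at the study's threshold, and 0 with only the replicate 1 or only the replicate 2 arrays. The small minus large difference was -0.13 over ORFs with 4 values and -0.12 with only the replicate 1 arrays. NOP6 moved between -0.0862 and 0.0375 with single arrays left out and was at 0.0413 with only the replicate 1 arrays, where RRP5 was at -1.33. In the class of both subunits RRP5 was the 1 higher call with only the replicate 2 arrays. Crossed pairing and the fits on arrays of 1 replicate number were added once the values had been seen.

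Over all ORFs no positive pairing of the arrays by replicate number was seen. The replicate 1 minus 2 differences of the dye orientations had a Pearson's r of 0.012 over 5231 ORFs, and of -0.07 without RRP5. Their rank correlation (Spearman) was -0.16. Such correlations cannot show whether same-numbered arrays shared material. With a replicate block 27 members were lower (RRP7 had an adjusted p of 0.066) and 3 higher, as RRP5 became the 1 higher call of its class. Crossed pairing also gave 27 lower. The promoter motif count and its alternative window were not run, since no promoter sequence was used here. With 4 arrays of unknown depth, small shifts such as that of UTP7 did not pass in the moderated fit, and background correction could not be varied.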

Other observations

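URB1 (YKL014C), a large-subunit factor outside the members and singled out after its values were seen, had -1.47, 0.22, 0.21 and -1.70. Its high and low values were crossed between replicate numbers and dye orientations, unlike those of RRP5, and its mean of -0.69 was not called (limma adjusted p = 0.128).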
